A study of Mus musculus with 6 samples.

Results

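The genes described here are 54 mouse genes of DNA replication and of the passage from G1 into S phase, a hand-picked list that was matched by symbol to the 54446 genes of the count table. All 54 were found, and all had enough counts to be tested among 14956 genes. The cells were TRAMP-C2, a male C57BL/6 prostate cancer line from the TRAMP mouse, in which a viral T antigen is driven by the probasin promoter. They were left untreated (control), or were treated for 24 h with 2 µM oxaliplatin or with 2 µM cisplatin. Each group had 2 poly(A) RNA-seq libraries, with totals of 21345312 to 24041767 expected counts. All groups are therefore 1 cell line in culture, and the labels do not say whether the libraries of a group came from separate cultures, so p-values measure the spread between these libraries. The series was made to study MHC class I genes in prostate cancer cells given platinum drugs, and its design allows comparisons of each drug with control and of the drugs with each other.

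Before a cell divides it copies its genome. In G1 the origin recognition complex, with Cdc6 and Cdt1, loads the MCM helicase onto origins, and at the G1/S border cyclin E and Dbf4-dependent kinases, Cdc45, the GINS complex and Mcm10 turn it into a moving helicase. DNA polymerases, the Pcna clamp and its loader then copy the strands, with nucleotides made by ribonucleotide reductase and thymidylate synthesis, while histone chaperones rebuild chromatin behind the fork. Most of these genes are transcribed in late G1 and S phase under E2F factors, and platinum drugs form adducts and crosslinks on DNA that impede forks. Cisplatin carries ammine and chloride ligands, whereas oxaliplatin carries a diaminocyclohexane carrier and an oxalate group.

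Promoter windows in RefSeq (build GRCm38.p6, 250 bases before to 50 after the annotated start) were found for 46 of the 54 genes, and not for Rfc2, Mcm4, Pole, Gins1, Gins2, Gins4, Tipin or Ccne2. An E2F motif, spelled TTTCCCGC, TTTGGCGC, TTTCGCGC or TTTGCCGC on either strand, was present in 17 of these 46 (37.0%), compared with 704 of the 27025 genes with such a window (2.60%). The box CCAAT, searched on both strands, was in 28 of 46 (60.9%), compared with 41.1% of all genes. Windows of the 4 MCM helicase genes with the motif and of the loader Cdc6 are printed as examples. Other genes with the motif, among them the loaders Cdt1 and Orc1, are not printed. The 5 printed genes ranged from no call with either drug (Mcm6) to a rise of 0.74 on the log2 scale after cisplatin (Cdc6). Mcm7 had opposite calls with the 2 drugs. Capitals mark the E2F motif, and a capital run longer than the motif holds overlapping matches on the 2 strands.
Mcm3, chr1:20820263-20820562, minus strand: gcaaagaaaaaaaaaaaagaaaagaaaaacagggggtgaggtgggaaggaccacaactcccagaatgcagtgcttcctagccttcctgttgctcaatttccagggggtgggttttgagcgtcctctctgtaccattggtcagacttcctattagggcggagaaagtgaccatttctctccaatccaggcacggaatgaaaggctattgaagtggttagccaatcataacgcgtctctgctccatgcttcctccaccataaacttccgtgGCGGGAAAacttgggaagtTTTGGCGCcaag
Mcm5, chr8:75109259-75109558, plus strand: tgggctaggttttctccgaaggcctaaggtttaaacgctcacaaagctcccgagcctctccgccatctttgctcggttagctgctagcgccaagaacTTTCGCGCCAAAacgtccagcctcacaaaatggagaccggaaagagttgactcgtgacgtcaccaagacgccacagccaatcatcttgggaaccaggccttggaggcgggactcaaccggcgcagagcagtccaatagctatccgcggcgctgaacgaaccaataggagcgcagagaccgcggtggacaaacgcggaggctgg
Mcm6, chr1:128359656-128359955, minus strand: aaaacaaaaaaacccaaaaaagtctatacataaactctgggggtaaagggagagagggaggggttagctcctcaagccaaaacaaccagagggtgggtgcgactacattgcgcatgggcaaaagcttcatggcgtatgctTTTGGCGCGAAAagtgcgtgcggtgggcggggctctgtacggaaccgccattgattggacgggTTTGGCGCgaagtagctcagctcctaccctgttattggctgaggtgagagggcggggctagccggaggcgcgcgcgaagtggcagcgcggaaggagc
Mcm7, chr5:138171834-138172133, minus strand: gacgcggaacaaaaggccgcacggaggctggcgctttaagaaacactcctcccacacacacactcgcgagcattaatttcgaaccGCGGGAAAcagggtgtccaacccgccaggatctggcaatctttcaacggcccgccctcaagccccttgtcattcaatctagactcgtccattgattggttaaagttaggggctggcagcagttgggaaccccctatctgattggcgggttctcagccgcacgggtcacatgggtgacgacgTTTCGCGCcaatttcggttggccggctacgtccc
Cdc6, chr11:98907901-98908200, plus strand: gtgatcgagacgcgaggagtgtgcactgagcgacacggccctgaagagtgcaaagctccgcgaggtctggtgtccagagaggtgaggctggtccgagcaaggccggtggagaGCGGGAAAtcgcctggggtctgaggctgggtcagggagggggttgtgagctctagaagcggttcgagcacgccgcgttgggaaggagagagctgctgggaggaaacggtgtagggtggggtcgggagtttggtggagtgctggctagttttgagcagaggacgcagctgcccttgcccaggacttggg
The first base of a match lay 19 and 38 bases after the start site in Mcm3, 153 and 149 before it in Mcm5, and 110, 106 and 47 before it in Mcm6. In Mcm7 the matches began 165 bases before and 16 after it, and in Cdc6 138 before it. Some genes have several annotated starts, with 56 windows for the 46 genes, and a gene was counted when any window matched. Of several windows, the one with the most matches is printed, and the other window of Mcm7 holds no E2F match. A match is a string of letters and not a measured binding site.

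After 24 h in cisplatin 42 of the 54 genes were higher than in control cells and 0 were lower by DESeq2, whereas after oxaliplatin 18 were higher and 2, Mcm7 and Pcna, were lower. Set directly against cisplatin, oxaliplatin left 31 of the 54 lower and 2, Cdc7 and Dnmt1, higher, with a median log2 difference of -0.21. The background was large, since with oxaliplatin 20.2% of all tested genes were called (10.7% higher and 9.5% lower), with cisplatin 28.1% (15.7% higher and 12.4% lower), and in the direct contrast 19.9% (8.62% above and 11.3% below cisplatin in oxaliplatin cells). At an unadjusted p under 0.05 cisplatin had 1 lower gene, Cdc7, which edgeR and total-count scaling also called. The cisplatin log2 fold changes ran from -0.27 for Cdc7 to 0.99 for Ccne2 with a median of 0.32, and those of oxaliplatin from -0.19 for Pcna to 0.37 for Dbf4 with a median of 0.11, beside medians of -0.00 over all tested genes in both comparisons. Fold changes are unshrunken DESeq2 estimates on the log2 scale, and a gene was called when its Benjamini-Hochberg adjusted p was under 0.05. The adjustment covered the tested genes that DESeq2's independent filter on mean count kept, and left 2900, 1740 and 2900 of the 14956 without an adjusted p for oxaliplatin, cisplatin and their difference. With 1 library left out, the oxaliplatin calls dropped to 12 higher without control replicate 1 or either cisplatin library, 9 without control replicate 2, and 7 and 8 without oxaliplatin replicates 1 and 2, with 1 lower gene each time. Those between the drugs dropped to 20 lower without either cisplatin library or oxaliplatin replicate 2, and to 19 without oxaliplatin replicate 1, while 33 to 40 genes were higher after cisplatin.

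Calls were more frequent among well counted genes. Of the 8422 genes with a mean at least as high as that of the least abundant member, 17.6% were higher and 14.7% lower after oxaliplatin, and 25.2% were higher and 16.9% lower after cisplatin. In the direct contrast 12.9% of them were above and 18.5% below their cisplatin level. The shares among the 54 were 33.3% higher and 3.70% lower after oxaliplatin, 77.8% higher after cisplatin, and, in the direct contrast, 3.70% above and 57.4% below cisplatin. The 54 genes were chosen with earlier results of these data known, so these shares are a description and not a test. Both drugs were compared with the same 2 control libraries, so their lists of calls are not independent. The 2 libraries of cisplatin did not overlap those of control for 49 genes in the higher and 1, Cdc7, in the lower direction (34.6% and 34.8% of all tested genes), and for oxaliplatin this held for 35 and 11 (32.1% and 32.7%).

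The transcripts of these genes made up 0.629% and 0.619% of all counts in the control libraries, 0.666% and 0.663% after oxaliplatin and 0.756% and 0.760% after cisplatin. In RNA from a whole culture a larger share of cells in S phase and more RNA per cell cannot be told apart. Libraries of a group lay close together, and the coefficient of variation over the 54 genes had a median of 3.09% for control, 1.76% for oxaliplatin and 2.01% for cisplatin. Of genes with a promoter window, 12 of the 17 with the E2F motif and 24 of the 29 without it were higher after cisplatin. Their median log2 fold changes were 0.26 and 0.34, and 25.2% of the well counted genes were higher. After oxaliplatin 6 of 17 and 11 of 29 were higher, and 1 in each set was lower. Of the well counted genes 17.6% were higher and 14.7% lower. The oxaliplatin medians of the sets were 0.11 and 0.13. These medians are descriptions, and the difference between them was not tested. The level of every gene in every library is plotted first.

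**Figure D1:**
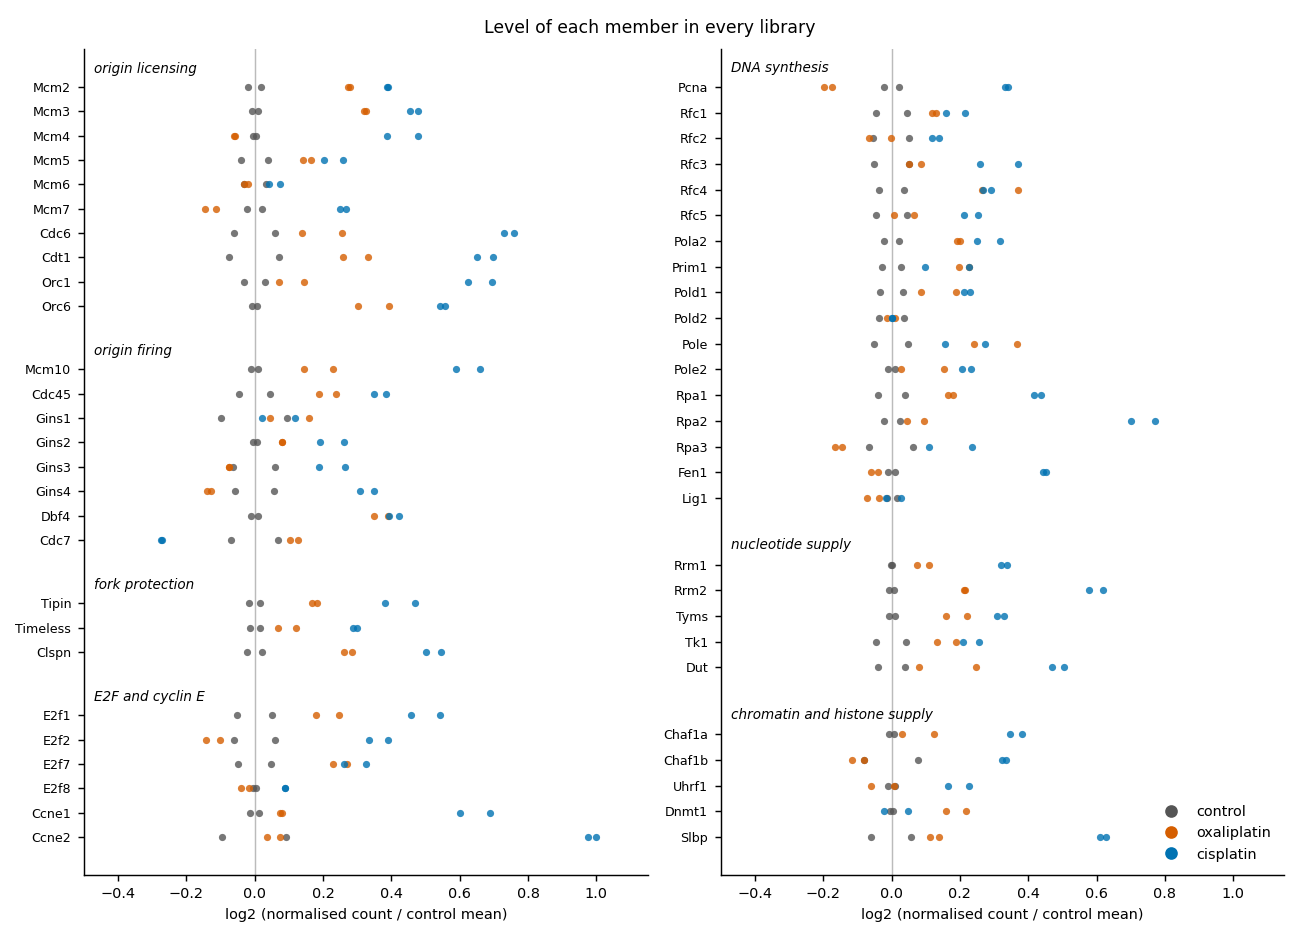
Normalised count of each of the 54 genes in each of the 6 libraries, as log2 of its ratio to the control mean (horizontal axis), with genes grouped by role (vertical axis) and 1 point per library. Cisplatin points lie to the right of the control points for 49 genes and oxaliplatin points for 35. The shares over all tested genes are 34.6% and 32.1%. Points lie to the left for 1 gene with cisplatin and 11 with oxaliplatin, beside 34.8% and 32.7% of all tested genes. Ccne2, Cdc6 and Rpa2 reach the highest ratios after cisplatin.

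Origin licensing genes encode the helicase ring and its loaders. Of 10 genes, 5 were higher and 1 was lower after oxaliplatin (50% and 10%, beside 17.6% and 14.7% of the well counted genes). After cisplatin 9 were higher (90%, beside 25.2%), and 8 were lower in oxaliplatin than in cisplatin (80%, beside 18.5%). The MCM2 to MCM7 subunits form a ring of equal parts, yet their transcripts moved unequally. Mcm2 and Mcm3 rose with both drugs. Levels are given as normalised counts, the expected counts of a library divided by its size factor, with the 2 libraries of each group side by side. For Mcm3 (ENSMUSG00000041859.10, chromosome 1, 20802968 to 20820312) the normalised counts were 5599 and 5527 in control cells, 6939.6 and 6970.2 after oxaliplatin, and 7621 and 7746 after cisplatin. The 3 groups did not overlap, and the log2 fold change was 0.32 ± 0.04 (adjusted p = 9.68e-14) with oxaliplatin and 0.47 ± 0.04 (adjusted p = 1.17e-28) with cisplatin in DESeq2, where the value after ± is the SE here and below. Counts of Mcm2 were 5529.9 and 5380.4 in control cells, 6615 and 6596 after oxaliplatin, and 7136 and 7149 after cisplatin, again in the order control, oxaliplatin, cisplatin, and Mcm2 rose by 0.28 ± 0.04 (adjusted p = 9.45e-10) with oxaliplatin in DESeq2 and by 0.39 with cisplatin. For Mcm2 the call between the drugs was lost in DESeq2 whichever library was left out (adjusted p 0.0606 to 0.313), and for Mcm3 without either oxaliplatin library or either cisplatin library (adjusted p 0.0746 to 0.165).

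Mcm4 and Mcm7 behaved otherwise. For Mcm4 (ENSMUSG00000022673.5, chromosome 16, 15623897 to 15637400) the counts were 6899.7 and 6860.2 in control cells, 6602 and 6615 after oxaliplatin, and 8993 and 9583 after cisplatin. Cisplatin libraries were above all others, with a change of 0.43 ± 0.04 (adjusted p = 5.58e-20) against control and a DESeq2 difference of oxaliplatin from cisplatin of -0.49 ± 0.04 (adjusted p = 1.87e-25). Oxaliplatin did not move Mcm4 past the test (-0.06). Mcm7 (ENSMUSG00000029730.16, chromosome 5, 138164583 to 138172422) had 6275 and 6082 in control cells, 5706 and 5583 after oxaliplatin, and 7436 and 7346 after cisplatin. It was called lower with oxaliplatin (-0.13) and higher with cisplatin (0.26), and the drugs differed by -0.39 ± 0.04 (adjusted p = 7.11e-18) in DESeq2. Mcm5 rose by 0.15 and 0.23 with oxaliplatin and cisplatin, while Mcm6, at 6144 counts in control, gave -0.02 and 0.06 and was called with neither. For Mcm5 the oxaliplatin call was lost in DESeq2 without control replicate 2 or either oxaliplatin library (adjusted p 0.0935 to 0.181), and for Mcm7 whichever library was left out (adjusted p 0.0521 to 0.297).

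The 4 loaders had cisplatin values of 0.55 to 0.74, above the 0.06 to 0.47 of the ring that they load. Cdt1 (ENSMUSG00000006585.3, chromosome 8, 122568015 to 122573554), the licensing factor that Geminin inhibits, had normalised counts of 2422 and 2186 in control cells, 2755 and 2901 after oxaliplatin, and 3733 and 3615 after cisplatin. The groups did not overlap, and Cdt1 rose by 0.30 with oxaliplatin and by 0.67 ± 0.07 (adjusted p = 2.92e-21) with cisplatin in DESeq2. Cdc6, the ATPase that works with it, had 956 and 1037 in control cells, 1096 and 1189 after oxaliplatin, and 1686 and 1654 after cisplatin, and its difference of oxaliplatin from cisplatin was -0.55 ± 0.09 (adjusted p = 6.47e-09) in DESeq2. Cdc6 rose with cisplatin (0.74), and its oxaliplatin value of 0.20 did not pass the test. Orc6, a subunit of the origin recognition complex, had 2071 and 2052 in control cells, 2542 and 2706 after oxaliplatin, and 3033 and 3000.1 after cisplatin. Its change with oxaliplatin was 0.35 ± 0.06 (adjusted p = 4.27e-07) in DESeq2 and with cisplatin 0.55, whereas Orc1, the ATPase subunit of the same complex, rose with cisplatin (0.66) and had 0.11 with oxaliplatin. For Orc6 the call between the drugs was lost in DESeq2 without oxaliplatin replicate 1 or either cisplatin library (adjusted p 0.115 to 0.302). No cisplatin call of this group was lost when any 1 library was left out.

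Origin firing factors split between cisplatin rises and no call. Of 8 genes, 2 were higher after oxaliplatin (25%, beside 17.6% of the well counted genes) and 5 after cisplatin (62.5%, beside 25.2%). Between the drugs 1 was higher and 2 were lower in oxaliplatin (12.5% and 25%, beside 12.9% and 18.5%). All but the cisplatin count lay near those shares. Mcm10 (ENSMUSG00000026669.14, chromosome 2, 4989714 to 5012791), which helps the loaded helicase to start, had normalised counts of 1309.6 and 1291 in control cells, 1525 and 1436 after oxaliplatin, and 1958 and 2052 after cisplatin. Its log2 fold change was 0.19 ± 0.08 (adjusted p = 0.0539) with oxaliplatin, 0.62 ± 0.08 (adjusted p = 5.09e-15) with cisplatin and -0.44 ± 0.07 (adjusted p = 1.17e-07) between the drugs in DESeq2. Cdc45, a part of the active helicase, had 1296 and 1380.3 in control cells, 1579 and 1524 after oxaliplatin, and 1745 and 1706 after cisplatin, and rose by 0.21 ± 0.08 (adjusted p = 0.024) and 0.37 ± 0.08 (adjusted p = 1.46e-05) with oxaliplatin and cisplatin in DESeq2. For Cdc45 the oxaliplatin call was lost in DESeq2 whichever library was left out (adjusted p 0.0666 to 0.344).

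Dbf4 and Cdc7, the regulatory and catalytic subunits of the kinase that fires origins, gave different values. Dbf4 (ENSMUSG00000002297.16, chromosome 5, 8396973 to 8422716) had 2104 and 2074 in control cells, 2664 and 2736 after oxaliplatin, and 2801 and 2741 after cisplatin. It rose with both drugs, by 0.37 ± 0.06 (adjusted p = 1.20e-08) and 0.41 ± 0.06 (adjusted p = 1.65e-10) in DESeq2, and the interval of the difference between them was -0.15 to 0.08. Cdc7 (ENSMUSG00000029283.17, chromosome 5, 106964322 to 106984432) had 513 and 564 in control cells, 588 and 578 after oxaliplatin, and 445 and 446 after cisplatin. Its cisplatin libraries were the lowest, at -0.27 against control (DESeq2 adjusted p = 0.0771), and it was higher in oxaliplatin than in cisplatin by 0.39 ± 0.12 (adjusted p = 0.00923) in DESeq2. For Cdc7 the call between the drugs was lost in DESeq2 without either oxaliplatin library or either cisplatin library (adjusted p 0.155 to 0.214).

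The 4 GINS subunits, which sit in the helicase in equal parts, had cisplatin values of 0.07 to 0.33. Gins4 had 1324 and 1222 in control cells, 1165 and 1155 after oxaliplatin, and 1622 and 1575 after cisplatin, and was lower in oxaliplatin than in cisplatin, with a difference of -0.46 ± 0.08 (adjusted p = 2.70e-07) in DESeq2. It rose with cisplatin (0.33), as did Gins2 (0.23), while Gins1 (0.07) and Gins3 (0.23) did not pass the test. With oxaliplatin the 4 values lay between -0.13 and 0.10 and none was called. For Gins2 the cisplatin call was lost in DESeq2 without control replicate 2 or cisplatin replicate 1 (adjusted p 0.0525 to 0.13), and for Gins4 without control replicate 2 or cisplatin replicate 1 (adjusted p 0.0584 to 0.0597).

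Of the 17 genes of DNA synthesis, 5 were higher and 1 was lower after oxaliplatin (29.4% and 5.88%, beside 17.6% and 14.7% of the well counted genes). After cisplatin 11 were higher (64.7%, beside 25.2%), and 7 were lower in oxaliplatin than in cisplatin (41.2%, beside 18.5%). Pcna (ENSMUSG00000027342.14, chromosome 2, 132249162 to 132253314), the sliding clamp of the polymerases, had normalised counts of 7339 and 7114 in control cells, 6296 and 6407 after oxaliplatin, and 9160.1 and 9089 after cisplatin. Its 3 groups were separate and in the order oxaliplatin, control, cisplatin. Pcna fell by 0.19 ± 0.04 on the log2 scale with oxaliplatin (adjusted p = 5.55e-05), rose by 0.34 ± 0.04 (adjusted p = 2.19e-15) with cisplatin and differed by -0.52 ± 0.04 (adjusted p = 5.88e-36) between the drugs in DESeq2. The clamp loader subunits rose with cisplatin in 4 of 5 cases (Rfc1, Rfc3, Rfc4 and Rfc5, 0.19 to 0.32), and with oxaliplatin only Rfc4 (0.32) was called. For Rfc4 the oxaliplatin call was lost in DESeq2 without control replicate 2 or oxaliplatin replicate 2 (adjusted p 0.0902 to 0.186). For Rfc1 the cisplatin call was lost in DESeq2 without control replicate 1 or cisplatin replicate 2 (adjusted p 0.125 to 0.15), for Rfc3 without control replicate 2 or cisplatin replicate 1 (adjusted p 0.141 to 0.191), and for Rfc4 without control replicate 2 or either cisplatin library (adjusted p 0.0989 to 0.145). For Rfc5 the cisplatin call was lost in DESeq2 without control replicate 1 or either cisplatin library (adjusted p 0.0754 to 0.146). For Rfc3 the call between the drugs was lost in DESeq2 whichever library was left out (adjusted p 0.0793 to 0.436), and for Rfc5 whichever library was left out (adjusted p 0.055 to 0.348).

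The 3 subunits of RPA, which coats single-stranded DNA, had cisplatin values of 0.17 to 0.74. Rpa1, the large subunit, had 5706 and 5399 in control cells, 6229 and 6289 after oxaliplatin, and 7526 and 7407 after cisplatin, and rose by 0.17 ± 0.05 (adjusted p = 0.00123) with oxaliplatin and 0.43 ± 0.05 (adjusted p = 3.52e-19) with cisplatin in DESeq2. Rpa2 (ENSMUSG00000028884.14, chromosome 4, 132768332 to 132778752), the middle subunit that checkpoint kinases phosphorylate, had 1213 and 1174 in control cells, 1274 and 1232 after oxaliplatin, and 1940.1 and 2038 after cisplatin. Its cisplatin libraries stood far above the other 4, with a rise of 0.74 ± 0.08 (adjusted p = 3.82e-20) and a difference of oxaliplatin from cisplatin of -0.67 ± 0.08 (adjusted p = 1.25e-16) in DESeq2. Oxaliplatin gave 0.07 for Rpa2. Rpa3, the small subunit, had -0.16 with oxaliplatin and 0.17 with cisplatin, neither called, and was lower in oxaliplatin than in cisplatin (-0.33). For Rpa1 the oxaliplatin call was lost in DESeq2 without control replicate 2 or either oxaliplatin library (adjusted p 0.0705 to 0.0987). For Rpa3 the call between the drugs was lost in DESeq2 without either oxaliplatin library or either cisplatin library (adjusted p 0.0882 to 0.329).

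Among enzymes of the lagging strand, Fen1, the flap nuclease, had 2554 and 2588 in control cells, 2503 and 2465 after oxaliplatin, and 3495 and 3519 after cisplatin. It was called with cisplatin (0.45) and differed by -0.50 ± 0.05 (adjusted p = 8.74e-18) between the drugs in DESeq2, whereas Lig1, the ligase that acts after it, had 0.00 with cisplatin and -0.06 with oxaliplatin. Pole (ENSMUSG00000007080.14, chromosome 5, 110286306 to 110337474), the catalytic subunit of the leading strand polymerase, had 2041 and 2186 in control cells, 2728 and 2500.1 after oxaliplatin, and 2357 and 2554 after cisplatin. Pole rose by 0.31 ± 0.08 (adjusted p = 4.87e-04) with oxaliplatin in DESeq2 and by 0.22 with cisplatin, and the interval of the difference was -0.06 to 0.24. Its partner Pole2 was called with neither drug (0.09 and 0.22). Of the primase and polymerase alpha genes, Pola2 rose with both drugs (0.20 and 0.28) and Prim1 was called with oxaliplatin (0.21) and not with cisplatin (0.16) or between the drugs (0.05, interval -0.12 to 0.21). With DESeq2's independent filter off, the oxaliplatin call of Prim1 was lost (adjusted p = 0.0565). For polymerase delta, Pold1 rose with cisplatin (0.22), while Pold2 gave -0.00 and 0.00, with 95% intervals of -0.15 to 0.15 and -0.15 to 0.15. For Pola2 the oxaliplatin call was lost in DESeq2 whichever library was left out (adjusted p 0.0592 to 0.228), for Prim1 whichever library was left out (adjusted p 0.12 to 0.363), and for Pole without oxaliplatin replicate 1 (adjusted p = 0.106). For Pola2 the cisplatin call was lost in DESeq2 without cisplatin replicate 2 (adjusted p = 0.0515), for Pold1 whichever library was left out (adjusted p 0.0597 to 0.213), and for Pole without control replicate 1 or cisplatin replicate 2 (adjusted p 0.224 to 0.31).

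All 5 genes of nucleotide supply rose with cisplatin (100%, beside 25.2% of the well counted genes). With oxaliplatin 3 rose (60%, beside 17.6%), and 3 were lower in oxaliplatin than in cisplatin (60%, beside 18.5%). Rrm2 (ENSMUSG00000020649.11, chromosome 12, 24708241 to 24714146), the S phase subunit of ribonucleotide reductase, had normalised counts of 3533 and 3502 in control cells, 4072 and 4083 after oxaliplatin, and 5246 and 5403 after cisplatin. The groups were separate, and Rrm2 rose by 0.21 ± 0.05 (adjusted p = 1.13e-04) with oxaliplatin and 0.60 ± 0.05 (adjusted p = 1.45e-33) with cisplatin, with -0.38 ± 0.05 (adjusted p = 2.57e-14) between the drugs in DESeq2. Rrm1, the large subunit, had 7653 and 7643 in control cells, 8055 and 8251 after oxaliplatin, and 9543 and 9672 after cisplatin, and changed by 0.33 ± 0.04 (adjusted p = 2.65e-16) with cisplatin and by -0.24 ± 0.04 (adjusted p = 1.15e-08) between the drugs in DESeq2. Dut, which removes dUTP, had 2239 and 2122 in control cells, 2307 and 2587 after oxaliplatin, and 3095 and 3023 after cisplatin. Dut rose by 0.49 ± 0.07 (adjusted p = 4.26e-10) with cisplatin and was lower in oxaliplatin than in cisplatin, with a difference of -0.32 ± 0.07 (adjusted p = 9.38e-05) in DESeq2. For Dut the call between the drugs was lost in DESeq2 without oxaliplatin replicate 1 (adjusted p = 0.0672).

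The 2 thymidine genes rose with both drugs and were not called between them. Tyms, thymidylate synthase, had 1776 and 1754 in control cells, 1971 and 2058 after oxaliplatin, and 2215 and 2185 after cisplatin, and rose by 0.19 ± 0.07 (adjusted p = 0.0188) with oxaliplatin in DESeq2 and 0.32 with cisplatin. Tk1, the salvage kinase, had 3887 and 3657 in control cells, 4303 and 4133 after oxaliplatin, and 4505 and 4361 after cisplatin, and rose by 0.16 ± 0.06 (adjusted p = 0.0171) in DESeq2 and 0.23. The intervals of their differences between the drugs were -0.25 to 0.00 for Tyms and -0.18 to 0.04 for Tk1. For Tyms the oxaliplatin call was lost in DESeq2 whichever library was left out (adjusted p 0.0887 to 0.364), and for Tk1 without control replicate 2 or either oxaliplatin library or either cisplatin library (adjusted p 0.0592 to 0.337).

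Among the 5 genes that supply chromatin behind the fork, 1 was higher after oxaliplatin (20%, near the 17.6% of the well counted genes). After cisplatin 4 were higher (80%, beside 25.2%). Between the drugs 4 were lower and 1 higher in oxaliplatin (80% and 20%, beside 18.5% and 12.9%). Slbp (ENSMUSG00000004642.13, chromosome 5, 33634952 to 33652574), which binds the stem-loop of replication histone mRNAs, had normalised counts of 2419 and 2228 in control cells, 2510.3 and 2558 after oxaliplatin, and 3589.9 and 3549 after cisplatin. Cisplatin libraries were highest, with 0.62 ± 0.06 (adjusted p = 1.91e-21) against control and -0.49 ± 0.06 (adjusted p = 7.66e-14) between the drugs in DESeq2, and oxaliplatin gave 0.13 ± 0.06 (adjusted p = 0.137). Chaf1a and Chaf1b, subunits of the histone chaperone CAF-1, rose with cisplatin by 0.36 ± 0.06 (adjusted p = 1.03e-09) and 0.33 ± 0.08 (adjusted p = 2.41e-04) in DESeq2. For Chaf1b the cisplatin call was lost in DESeq2 without control replicate 2 (adjusted p = 0.0552).

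Counts of Chaf1a were 3314 and 3279.8 in control cells, 3596 and 3368 after oxaliplatin, and 4294 and 4193 after cisplatin. Those of Chaf1b were 1586 and 1423 in control cells, 1422 and 1387 after oxaliplatin, and 1897 and 1884 after cisplatin. Both were lower in oxaliplatin than in cisplatin, with differences of -0.29 ± 0.05 (adjusted p = 3.99e-06) and -0.43 ± 0.08 (adjusted p = 1.43e-06) in DESeq2, and oxaliplatin gave 0.08 ± 0.06 (adjusted p = 0.332) for Chaf1a. Uhrf1 and Dnmt1 maintain DNA methylation. Uhrf1, which guides the methyltransferase to new DNA, rose with cisplatin (0.20) and had -0.03 with oxaliplatin. Dnmt1 (ENSMUSG00000004099.16, chromosome 9, 20907209 to 20959888), the methyltransferase, had 7853 and 7801 in control cells, 9095 and 8744 after oxaliplatin, and 7714 and 8085 after cisplatin. It rose by 0.19 ± 0.04 (adjusted p = 1.60e-04) with oxaliplatin in DESeq2, gave 0.01 with cisplatin (-0.035 under total-count scaling) and was higher in oxaliplatin than in cisplatin by 0.18. For Dnmt1 the oxaliplatin call was lost in DESeq2 without oxaliplatin replicate 1 (adjusted p = 0.0867). For Uhrf1 the cisplatin call was lost in DESeq2 without cisplatin replicate 2 (adjusted p = 0.0812). For Uhrf1 the call between the drugs was lost in DESeq2 without oxaliplatin replicate 2 (adjusted p = 0.0592), and for Dnmt1 without oxaliplatin replicate 1 or cisplatin replicate 1 (adjusted p 0.104 to 0.133).

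The E2F factors and the E cyclins held the largest change of all 54 genes. Of 6 genes, 1 was higher after oxaliplatin (16.7%, near the 17.6% of the well counted genes). After cisplatin 5 were higher (83.3%, beside 25.2%), and 4 were lower in oxaliplatin than in cisplatin (66.7%, beside 18.5%). Ccne2 (ENSMUSG00000028212.16, chromosome 4, 11191351 to 11204779), cyclin E2, had normalised counts of 699 and 796 in control cells, 766 and 787 after oxaliplatin, and 1469 and 1494 after cisplatin. Cisplatin libraries were 1.98-fold above control, at 0.99 ± 0.10 (adjusted p = 2.48e-22) in DESeq2, while the oxaliplatin libraries lay inside the control range, at 0.05 ± 0.10 (adjusted p = 0.769). The drugs differed by -0.93 ± 0.10 (adjusted p = 4.28e-20) in DESeq2. Ccne1 (ENSMUSG00000002068.16, chromosome 7, 38097984 to 38107534), cyclin E1, had 623 and 634 in control cells, 664 and 662 after oxaliplatin, and 954 and 1013 after cisplatin. Its groups did not overlap, with 0.08 ± 0.10 (adjusted p = 0.665) for oxaliplatin, 0.65 ± 0.10 (adjusted p = 3.83e-09) for cisplatin and -0.57 ± 0.10 (adjusted p = 3.48e-07) between them in DESeq2. Without control replicate 1 the oxaliplatin value of Ccne2 was -0.034, so its sign rests on that library.

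E2f1 and E2f2 are activating factors. E2f1 (ENSMUSG00000027490.17, chromosome 2, 154559407 to 154569892) had 1073 and 1001 in control cells, 1174 and 1231 after oxaliplatin, and 1509 and 1423 after cisplatin, and gave 0.21 ± 0.09 (adjusted p = 0.0543) with oxaliplatin, 0.50 ± 0.09 (adjusted p = 1.14e-07) with cisplatin and -0.29 ± 0.09 (adjusted p = 0.00517) between the drugs in DESeq2. E2f2, the least abundant member, had 306 and 333 in control cells, 298 and 289.6 after oxaliplatin, and 419 and 403 after cisplatin, and gave -0.12 ± 0.15 (adjusted p = 0.632), 0.36 ± 0.15 (adjusted p = 0.0449) and -0.48 ± 0.15 (adjusted p = 0.00672) in the same order of comparisons in DESeq2. Each was highest in cisplatin cells. With DESeq2's independent filter off, the cisplatin call of E2f2 was lost (adjusted p = 0.0505). For E2f2 the cisplatin call was lost in DESeq2 whichever library was left out (adjusted p 0.138 to 0.337). For E2f1 the call between the drugs was lost in DESeq2 without either oxaliplatin library or either cisplatin library (adjusted p 0.0618 to 0.23), and for E2f2 without either oxaliplatin library or either cisplatin library (adjusted p 0.123 to 0.207).

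E2f7 and E2f8 encode the atypical repressors of E2F targets. E2f7 had 808 and 863 in control cells, 979 and 1007 after oxaliplatin, and 1002 and 1048 after cisplatin. It was called with both drugs, at 0.25 ± 0.09 (adjusted p = 0.0342) and 0.29 ± 0.09 (adjusted p = 0.0077) in DESeq2, and the difference of -0.05 ± 0.09 (adjusted p = 0.784) was not called. E2f8 had 545 and 548 in control cells, 540.3 and 531 after oxaliplatin, and 580.3 and 581 after cisplatin, with -0.03 ± 0.11 (adjusted p = 0.907), 0.09 ± 0.11 (adjusted p = 0.615) and -0.12 ± 0.11 (adjusted p = 0.513) in DESeq2, and was called in none of the 3 comparisons. For E2f7 the oxaliplatin call was lost in DESeq2 whichever library was left out (adjusted p 0.105 to 0.352). For E2f7 the cisplatin call was lost in DESeq2 without control replicate 1 or either cisplatin library (adjusted p 0.0858 to 0.201).

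The 3 fork protection genes moved in the same directions. All rose with cisplatin (100%, beside 25.2% of the well counted genes), and all were lower in oxaliplatin than in cisplatin (100%, beside 18.5%). Only Clspn was also called with oxaliplatin (33.3%, beside 17.6%). Clspn (ENSMUSG00000042489.15, chromosome 4, 126556935 to 126593903), Claspin, the adaptor that passes the stalled fork signal to the checkpoint kinase Chk1, had normalised counts of 1246 and 1286 in control cells, 1519 and 1542 after oxaliplatin, and 1791 and 1847 after cisplatin. It gave 0.27 ± 0.07 (adjusted p = 0.00166) with oxaliplatin, 0.52 ± 0.07 (adjusted p = 2.81e-11) with cisplatin and -0.25 ± 0.07 (adjusted p = 0.0038) between the drugs in DESeq2. For Clspn the oxaliplatin call was lost in DESeq2 without control replicate 1 or either oxaliplatin library (adjusted p 0.0703 to 0.119). For Clspn the call between the drugs was lost in DESeq2 without either oxaliplatin library or either cisplatin library (adjusted p 0.09 to 0.178). Tipin and Timeless form a complex that travels with the fork.

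Counts of Tipin were 1343 and 1374 in control cells, 1541 and 1525 after oxaliplatin, and 1768 and 1881 after cisplatin, and of Timeless 1744 and 1708 in control cells, 1877 and 1811 after oxaliplatin, and 2125 and 2108 after cisplatin. Both were in the order control, oxaliplatin, cisplatin with no overlap. Tipin gave 0.17 ± 0.08 (adjusted p = 0.0725), 0.43 ± 0.07 (adjusted p = 1.82e-07) and -0.25 ± 0.07 (adjusted p = 0.00445) for oxaliplatin, cisplatin and their difference in DESeq2. Timeless gave 0.10 ± 0.07 (adjusted p = 0.328), 0.29 ± 0.07 (adjusted p = 8.22e-05) and -0.20 ± 0.07 (adjusted p = 0.0142). For Tipin the call between the drugs was lost in DESeq2 without either oxaliplatin library or either cisplatin library (adjusted p 0.0532 to 0.228), and for Timeless without either oxaliplatin library or either cisplatin library (adjusted p 0.158 to 0.304). Changes of all genes with both drugs are plotted together.

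**Figure D2:**
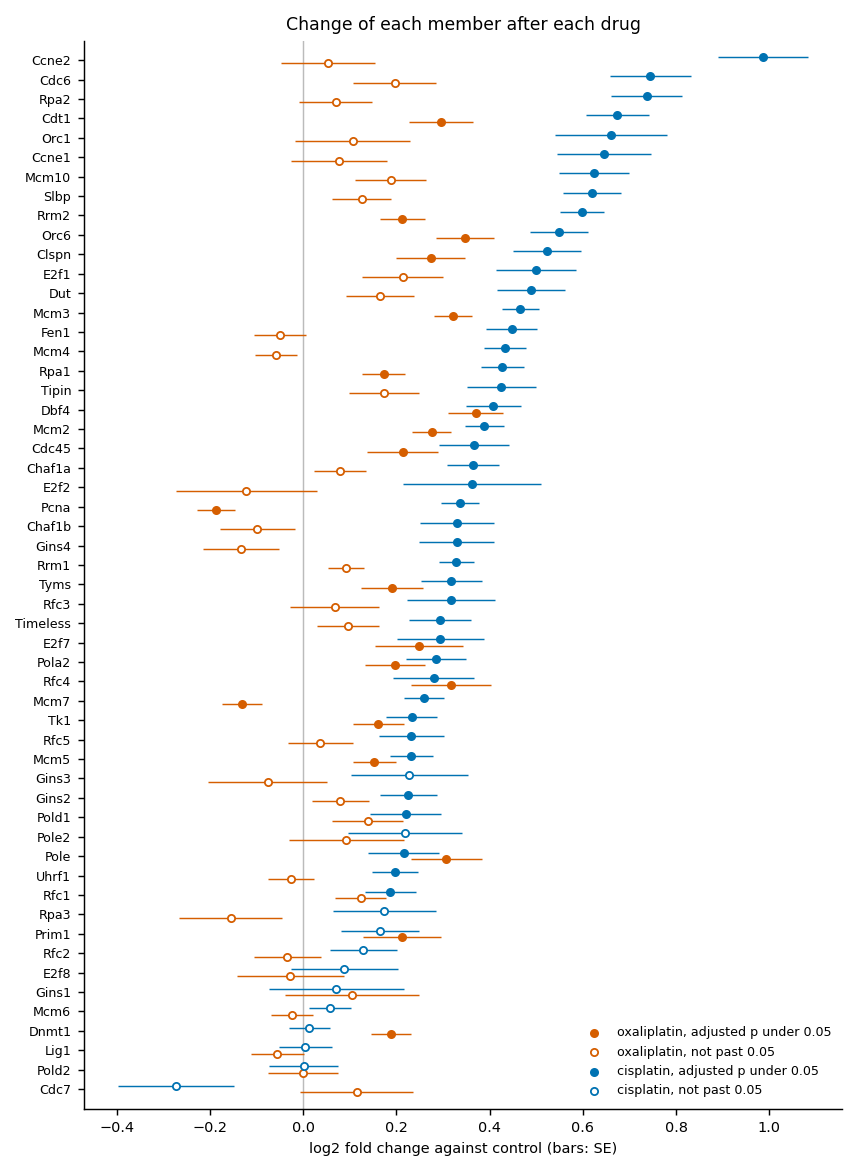
Log2 fold change against control (horizontal axis) of each gene (vertical axis, ordered by the cisplatin value) after oxaliplatin (orange) and cisplatin (blue), with bars of 1 SE and filled points for an adjusted p under 0.05. Cisplatin has 42 filled points, all to the right of 0, and oxaliplatin has 20, of which Pcna and Mcm7 are to the left.

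Oxaliplatin and cisplatin were each given at 2 µM for 24 h, so that 1 pair of compounds was compared at 1 dose and 1 time. An equal molar dose need not be an equally effective one, so compound and effective exposure cannot be told apart here. Genes lower in oxaliplatin than in cisplatin were led by Ccne2 (-0.93, 95% interval -1.12 to -0.74), Rpa2 (-0.67, -0.81 to -0.52), Ccne1 (-0.57, -0.77 to -0.37), Orc1 (-0.55, -0.79 to -0.32) and Cdc6 (-0.55, -0.72 to -0.38). Of the 31, 18 kept their call in the 15 alternative fits, which include leaving out each library. They were Mcm4, Mcm7, Cdc6, Cdt1, Orc1, Mcm10, Gins4, Pcna, Rpa1, Rpa2, Fen1, Rrm1, Rrm2, Chaf1a, Chaf1b, Slbp, Ccne1 and Ccne2. Neither of the 2 genes that were higher in oxaliplatin, Cdc7 (interval 0.15 to 0.63) and Dnmt1 (0.09 to 0.26), did so. Libraries of the drugs did not overlap for 46 genes in the lower and 2 in the higher direction (34.5% and 33.5% of all tested genes).

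For 21 genes the difference between the drugs was not called. Their intervals reached at most from -0.55 (Gins3) to 0.31 (Gins1), and 17 of them included 0. Among the narrower intervals that included 0 were those of Rfc1 (-0.17 to 0.04), Mcm5 (-0.17 to 0.01) and Lig1 (-0.17 to 0.05). A missing call does not show that the drugs act alike on these genes. Differences are plotted in order of size and counted by role.

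**Figure D3:**
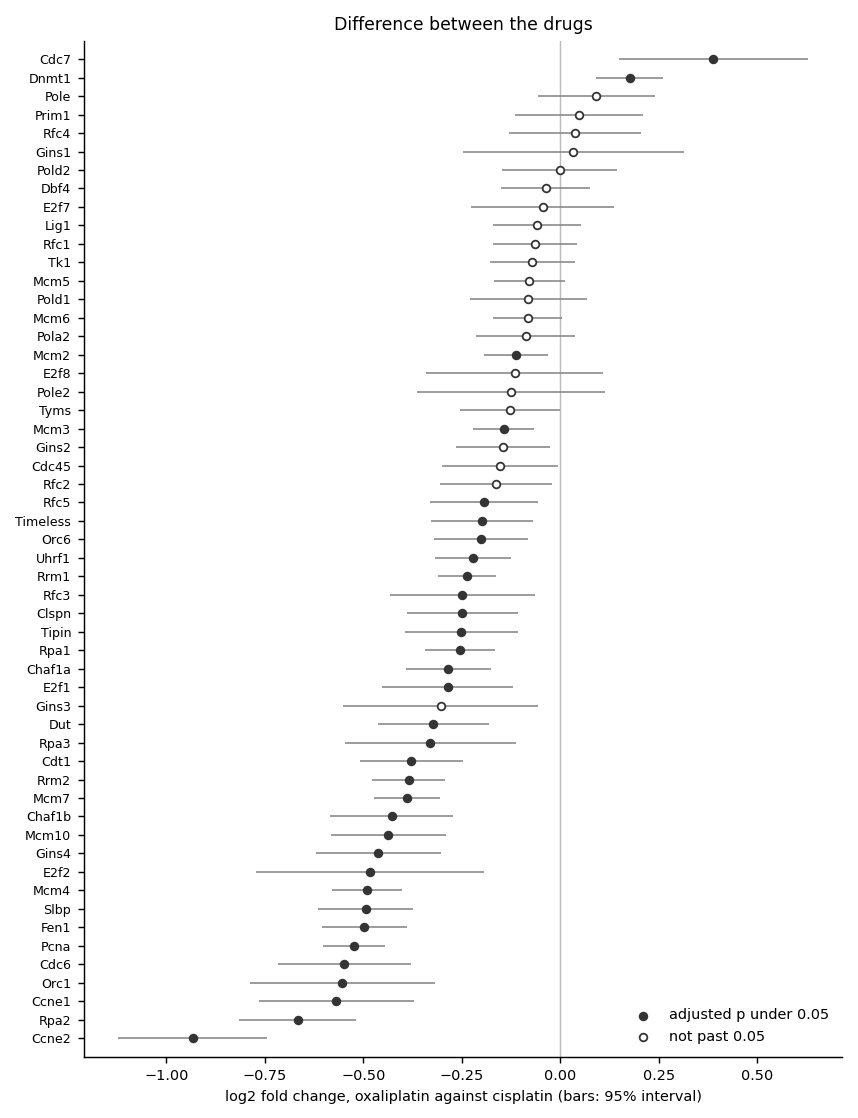
Log2 fold change of oxaliplatin against cisplatin (horizontal axis) for each gene (vertical axis, ordered by value), with 95% intervals and filled points for an adjusted p under 0.05. Filled points on the left are 31 genes down to Ccne2, and those on the right are Cdc7 and Dnmt1.

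**Figure D4:**
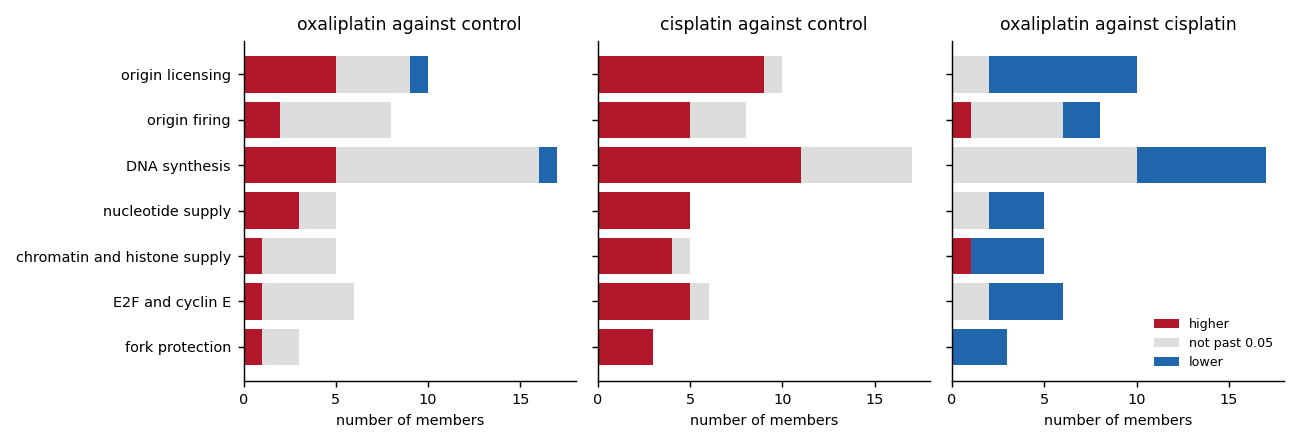
Number of genes (horizontal axis) called higher, called lower or not past 0.05 in each role group (vertical axis) for the 3 comparisons. After cisplatin the bars hold no lower calls, and nucleotide supply (5 of 5) and fork protection (3 of 3) are called in full.

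Per unit of transcript length the genes covered a wide range of levels. In control cells the level in TPM, computed from exon length, ran from 8.34 ± 0.6 (SD, n = 2) for E2f2 to 384 ± 3.65 for Pcna, with a median of 48.9. Clamp, helicase and ribonucleotide reductase genes were at the top, with 244 ± 2.05 TPM for Mcm4, 223 ± 6.08 for Mcm5, 189 ± 0.615 for Mcm3 and 162 ± 0.969 for Rrm2. Low levels were also those of E2f7 (11.8 ± 0.694), E2f8 (12.8 ± 0.201), Orc1 (15.8 ± 0.285) and Cdc7 (16.4 ± 1.3). Within the MCM ring, levels ran from 99.9 ± 0.699 for Mcm2 to 244 ± 2.05 for Mcm4, and the subunits of RPA differed from 50.8 ± 0.532 for Rpa2 to 127 ± 3.38 for Rpa1.

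The other genes of replication and G1/S control, 65 genes listed by hand, are given by counts. They are set beside all tested genes and not beside the well counted genes used for the role groups. Among well counted genes 17.6% were higher after oxaliplatin, 25.2% were higher after cisplatin, and 18.5% were lower in oxaliplatin than in cisplatin. With oxaliplatin 18 rose and 2 fell (27.7% and 3.08%, beside 10.7% and 9.5% of all tested genes). With cisplatin 35 rose and 5 fell (53.8% and 7.69%, beside 15.7% and 12.4%). In the direct contrast oxaliplatin exceeded cisplatin for 4 and was below it for 17 (6.15% and 26.2%, beside 8.62% and 11.3%). The medians were 0.09, 0.22 and -0.09. With 1 library left out the counts higher than control were 8 and 9 without oxaliplatin replicates 2 and 1, and 12 to 15 otherwise with oxaliplatin, and 18 without cisplatin replicate 2, 20 without control replicate 1 and 22 to 25 otherwise with cisplatin. Those below cisplatin were 8 to 17, lowest without cisplatin replicate 2. Ccnd1, cyclin D1, had normalised counts of 4012 and 4161 in control cells, 5436 and 5242 after oxaliplatin, and 7684 and 8087 after cisplatin, and rose by 0.39 ± 0.05 (adjusted p = 9.94e-13) with oxaliplatin and 0.95 ± 0.05 (adjusted p = 1.08e-77) with cisplatin in DESeq2. Its kinase Cdk6 had 2032 and 2216 in control cells, 2936 and 2834 after oxaliplatin, and 2449 and 2729 after cisplatin, with 0.44 ± 0.08 (adjusted p = 1.27e-07) for oxaliplatin in DESeq2. Orc2, an origin recognition subunit, had 796 and 869 in control cells, 1255 and 1295 after oxaliplatin, and 1148 and 1200.3 after cisplatin, and rose by 0.61 ± 0.09 (adjusted p = 4.35e-10) with oxaliplatin in DESeq2 and 0.50 with cisplatin.

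Of the 9 other genes of nucleotide supply, 5 were higher after oxaliplatin (55.6%, beside 10.7% of all tested genes). After cisplatin 7 were higher (77.8%, beside 15.7%), and 4 were lower in oxaliplatin than in cisplatin (44.4%, beside 11.3%). Shmt1, of folate metabolism, rose by 0.79 ± 0.09 (adjusted p = 2.67e-15) and Umps, of pyrimidine synthesis, by 0.52 ± 0.06 (adjusted p = 1.36e-18) with cisplatin in DESeq2. Samhd1, a dNTP hydrolase, rose by 0.35 ± 0.06 (adjusted p = 9.39e-09) with oxaliplatin in DESeq2. Hells, a chromatin remodeller, rose by 0.33 ± 0.06 (adjusted p = 2.16e-07) with oxaliplatin and 0.64 ± 0.06 (adjusted p = 8.78e-28) with cisplatin in DESeq2.

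The other genes that fell or were higher in oxaliplatin than in cisplatin, and Cdkn1a, were chosen for naming after their values were seen. With oxaliplatin the 2 lower genes were the kinase inhibitor Cdkn1b (-0.21) and the pocket protein gene Rbl2 (-0.37). With cisplatin the 5 were Cdkn1b (-0.25), Rbl2 (-0.28), the kinase inhibitor Cdkn2c (-0.70), the pocket protein gene Rbl1 (-0.55) and the origin subunit Orc3 (-0.26). Higher in oxaliplatin than in cisplatin were Cdkn2c (0.62), Rbl1 (0.50), Fbxo5 (0.33) and Orc3 (0.27). For Cdkn1b the oxaliplatin call was lost in DESeq2 whichever library was left out (adjusted p 0.0557 to 0.238), and for Rbl2 without control replicate 1 or oxaliplatin replicate 2 (adjusted p 0.081 to 0.103). For Cdkn1b the cisplatin call was lost in DESeq2 without control replicate 2 or either cisplatin library (adjusted p 0.0513 to 0.0843), for Rbl2 whichever library was left out (adjusted p 0.0522 to 0.205), and for Orc3 whichever library was left out (adjusted p 0.0827 to 0.228). For Rbl1 the call between the drugs was lost in DESeq2 without oxaliplatin replicate 1 (adjusted p = 0.0742), for Fbxo5 without either oxaliplatin library or either cisplatin library (adjusted p 0.0622 to 0.275), and for Orc3 whichever library was left out (adjusted p 0.0512 to 0.281). Cdkn1a, the p53-induced kinase inhibitor, had normalised counts of 120.4 and 139.9 in control cells, 102 and 111 after oxaliplatin, and 254 and 263 after cisplatin, with 0.99 ± 0.21 after cisplatin (DESeq2 adjusted p = 3.44e-05) and -0.29 ± 0.23 after oxaliplatin (DESeq2 adjusted p = 0.384).

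**Figure D5:**
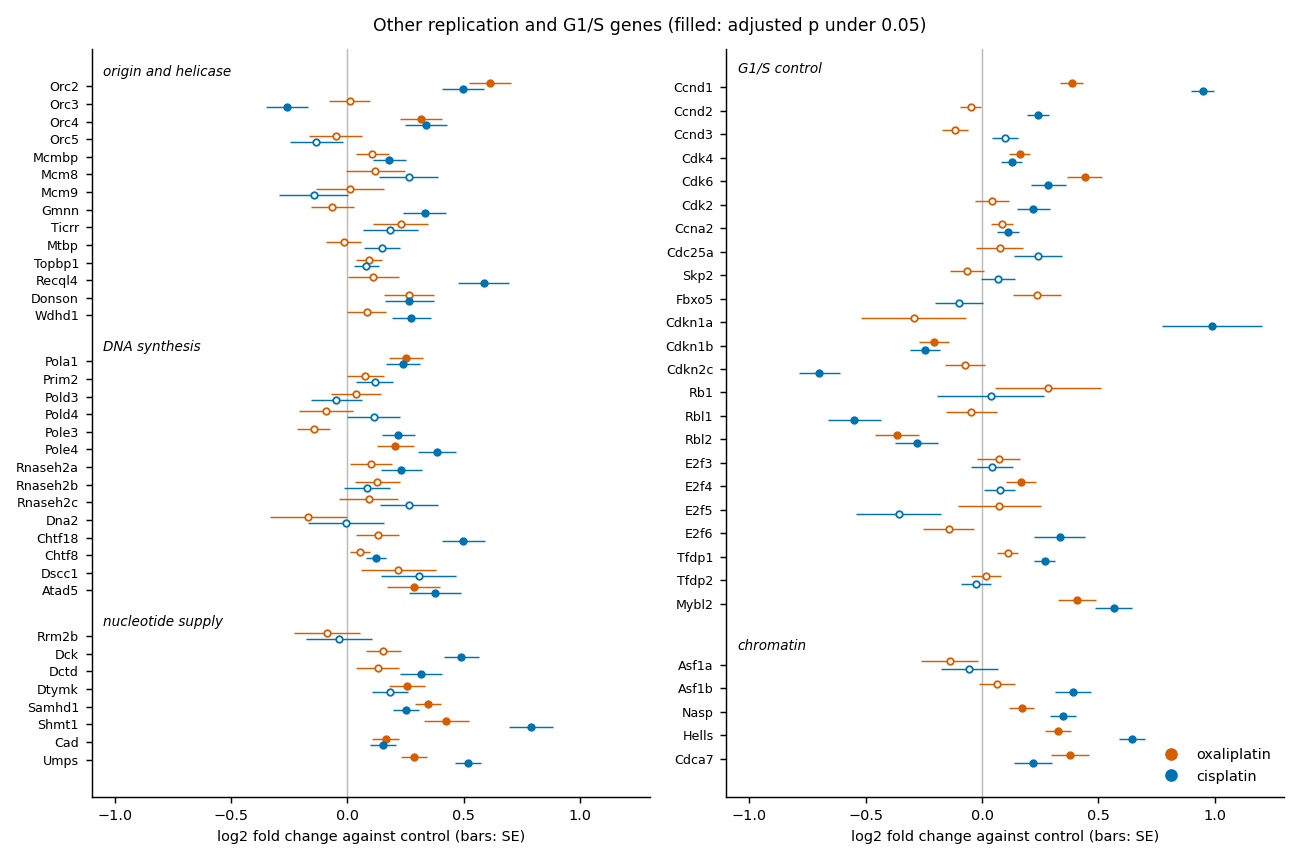
Log2 fold change against control (horizontal axis, bars of 1 SE) of 64 of the 65 other replication and G1/S genes (vertical axis, by group) after oxaliplatin (orange) and cisplatin (blue), filled for an adjusted p under 0.05. Ccnd1 and Cdkn1a reach the highest cisplatin values, 0.95 and 0.99, and Cdkn2c the lowest, -0.70.

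The labelled cell type was checked against markers. Of the prostate markers, Pbsn, which encodes the secreted protein probasin, was at 0 in all 6 libraries, so this marker of differentiated prostate epithelium was absent. Epithelial Krt8, Krt18 and Cdh1 were present (95.2 to 573) and Epcam was at most 1.97, while the summed leukocyte markers were 0 to 1.96. Summed epithelial markers were 626 and 661 in control, 619 and 631 after oxaliplatin and 852 and 845 after cisplatin, most of it Cdh1. The 4 fibroblast markers together gave 134075 and 122727, 108172 and 107721, and 101218 and 104555 in the same order, nearly all of it Col1a1 (129469 and 117887, 103394 and 102600.3, and 95929 and 99662). Pdgfra did not follow that sum, with 1058 and 1106 in control, 1451 and 1538 after oxaliplatin and 1161 and 1141 after cisplatin, and neither did Dcn, with 3493 and 3676, 3299 and 3563, and 4079 and 3708. The 3 endothelial markers summed to 27.0 and 22.7, 61.3 and 51.2, and 71.6 and 53.2, most of it Kdr. These sums differed between groups, and their part in the changes of the replication genes was not tested.

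Some of the genes share sequence with neighbours. Exons of 20 of the 54 overlap those of another gene, and for 12 that neighbour had at least 1000 counts in all. They were Orc6, Rfc4, Rfc5, Gins2, Chaf1a, Cdc45, Fen1, Mcm7, Ccne2, Lig1 and Tk1 on the opposite strand and Pole2 on the same strand. Pcna and Tyms have processed pseudogene copies, of which Pcna-ps2 received 272 counts in all. Whether counting used strand is not given in the sources used here, so the values of these genes are uncertain to that extent.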

How the data were processed

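Poly(A) RNA of TRAMP-C2 cells was sequenced from stranded mRNA libraries, 2 per group. The authors deposited a table of expected counts, which had not been scaled between libraries. The submitters' processing notes name STAR 2.5.3a, RSEM 1.3.0 and GRCm38.p6, while the study's methods describe another STAR version, another counter and the GENCODE vm12 annotation for its in vitro RNA-seq. Which annotation went with the RSEM counts, and the strand setting, are not given in the sources used here. Of 54446 gene identifiers, 54409 matched GENCODE M21, 53229 with the same version, which gave symbols, positions and exon lengths.

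Counts were rounded, and a gene was kept when 2 or more libraries held 10 or more of its counts. DESeq2 (version 1.42.0, R 4.3.3) used the 6 libraries in a single fit by group, with median-of-ratios scaling and two-sided Wald tests, with Benjamini-Hochberg adjustment per comparison at 0.05 after DESeq2's independent filter on mean count (optimised at 0.1), the test that the study's methods name. At these depths 3 counts equal 0.125 to 0.141 CPM. TPM values were computed from exon length. Intervals are 95% Wald intervals and cover only the spread that the model estimates from 2 libraries per group. The script was tested on simulated data. The 54 genes, the 65 other genes and the tests were chosen with earlier results of these data known. Full statistics go to the 6 E2F and cyclin E genes and to the 3 genes with the smallest adjusted p of each other role group in each comparison, and among the other genes to the 5 with the smallest adjusted p for each drug. As alternatives, edgeR 4.0.16 (quasi-likelihood), scaling by TMM or by total counts, looser and stricter count filters, adjustment without the independent filter, a block for replicate number, fits limited to the groups compared, a minimum change and the omission of each library were run. Values of 3 genes outside the 54, of which 1 met the rule for full statistics, are not reported here.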

Additional observations from a re-analysis of the deposited data

How the results depend on the processing

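With 2 libraries per group, calls of small changes depend on which libraries are in the fit. A call that is absent at this depth and replication is not evidence of no change. Some calls were lost with the estimate nearly unchanged, as for Mcm7 with oxaliplatin, at -0.13 without either cisplatin library. Leaving out each library in turn gave 7 to 12 members higher and 1 lower after oxaliplatin (18 and 2 with all libraries), 33 to 40 higher and 0 lower after cisplatin (42 and 0), and 0 to 2 higher and 19 to 28 lower between the drugs (2 and 31). When a group is left with 1 library, that library is assumed to vary like those of the other groups. Medians ranged from 0.10 to 0.13 for oxaliplatin, 0.29 to 0.33 for cisplatin and -0.23 to -0.19 between the drugs. For the other pathway genes the ranges were 8 to 15 higher and 0 to 1 lower after oxaliplatin, 18 to 25 and 2 to 3 after cisplatin, and 1 to 3 and 8 to 17 between the drugs.

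Held under all 15 alternative fits were 6 of 18 members called higher (Mcm2, Mcm3, Cdt1, Orc6, Dbf4 and Rrm2) and 1 of 2 called lower (Pcna) with oxaliplatin, 29 of 42 with cisplatin, and 18 of 31 lower and 0 of 2 higher between the drugs. A minimum absolute log2 fold change of 0.5 left 0 higher and 0 lower members with oxaliplatin, 12 higher with cisplatin, and 0 higher and 6 lower between the drugs. Among the other pathway genes it left 1 higher and 0 lower, 8 higher and 2 lower, and 2 higher and 3 lower. Shares of all tested genes are not given for the minimum change, for the held calls or for single libraries left out. These losses therefore cannot be read as particular to the members. Fitting only the 4 libraries compared left 1 lower member with oxaliplatin. After cisplatin edgeR and total-count scaling each called 1 member lower. In edgeR 24 members were higher and 2 lower after oxaliplatin, 45 higher after cisplatin, and 2 higher and 36 lower between the drugs. The added members were Cdc6, Mcm10, Rfc1, Dut, E2f1 and Tipin for oxaliplatin, and Gins3, Prim1 and Pole2 higher for cisplatin. Between the drugs they were Cdc45, Gins2, Gins3, Rfc2 and Tyms. Over all tested genes edgeR also called more, 2333 higher and 2285 lower with oxaliplatin and 3095 and 3017 with cisplatin. Total-count scaling gave medians of 0.10, 0.28 and -0.18 for oxaliplatin, cisplatin and their difference. It also changed the sign of the cisplatin value of Dnmt1 to -0.035. With 1 library left out that value ranged from -0.021 (without cisplatin replicate 2) to 0.048, and the oxaliplatin value of Ccne2 from -0.034 (without control replicate 1) to 0.153. Over all tested genes total-count scaling changed the calls from 2355 higher and 1848 lower to 1824 and 2376 with cisplatin, and from 1289 and 1688 to 1622 and 1364 between the drugs. The cause was not tested.

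Libraries of different groups share replicate numbers, but over 10731 genes the deviations of same-numbered libraries from their group means correlated at 0.07 between control and oxaliplatin, -0.05 between control and cisplatin, and -0.21 between the drugs, so the numbers were not taken to pair the libraries. A replicate block gave 12 higher and 1 lower members with oxaliplatin, 38 and 0 with cisplatin, and 1 and 23 between the drugs, with medians of 0.11, 0.32 and -0.21, and among the other pathway genes 13 and 1, 25 and 3, and 2 and 16. A crossed pairing of the cisplatin numbers, chosen after seeing the data, gave 1 lower member with oxaliplatin and 1 higher between the drugs, and 1, 3 and 2 of the other pathway genes lower with oxaliplatin, lower with cisplatin and higher between the drugs.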

Other observations

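The length of each gene's span in the genome was set beside its log2 fold changes, as a description over genes that share the same 6 libraries. Spearman's rho of span with the log2 fold change of oxaliplatin against cisplatin was 0.38 over the 54 genes, compared with 0.12 over 14946 tested genes with a position. With each drug against control the values over the 54 genes were 0.25 for oxaliplatin and -0.21 for cisplatin, compared with -0.03 and -0.13 over all genes. Genes are not independent replicates, and no test was made.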
